A study of Homo sapiens with 134 samples.

Results

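The response of bronchial epithelial cells 4 h after irradiation with 28Si ions was measured against mock irradiation on 9 expression arrays. They are 9 of the 39 arrays of the 28Si runs and were chosen by their labelled radiation type, time and dose. They hold 3 biological replicates, 09A, 09B and 09C, here called runs, and each run contributed 1 array at 0.5 Gy of 28Si, 1 array at 1 Gy of 28Si and 1 mock array at 0 Gy. HBEC3KT is a single line of human bronchial epithelial cells immortalised with CDK4 and the telomerase subunit hTERT, so the runs are repeats of 1 line and p-values measure the spread between runs, not between donors. The rest of the series holds 28Si samples at 1, 12 and 24 h, samples taken before irradiation, and the same design for 56Fe ions at 0.5 and 1 Gy and for γ-rays at 1 and 3 Gy, a group that the sample labels call x-ray. All samples, mock included, carry both immortalising genes.

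Heavy ions such as 28Si deposit energy densely along their tracks and leave clustered DNA lesions, whereas γ-rays deposit it sparsely. DNA breaks activate the kinases ATM and ATR, which stabilise the transcription factor p53. This factor then raises the transcription of genes that stop the cell cycle, repair DNA or start cell death. CDKN1A (p21) is the classical p53 target: it inhibits cyclin-dependent kinases, keeps the RB proteins bound to E2F factors and so holds back genes needed for the entry into S phase.

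Values are log2 signals after background correction and quantile normalization of all arrays, where 1 unit is a factor of 2. The response of a run is the mean of its 0.5 and 1 Gy arrays minus its mock array, and the response of a gene is the mean over the 3 runs. It was tested with limma on the 36 responses of the series (3 radiation types, 4 times and 3 runs), with p-values adjusted by Benjamini-Hochberg over 24350 probes above a floor on signal. This set held 14133 named genes, each represented by 1 probe. The 6 irradiated arrays had median raw signals of 48.9 to 74.5, against 60.2 to 84.6 on the 3 mock arrays, within the range of 45.8 to 115.8 over all arrays. The basal epithelial keratins KRT5 and KRT14 averaged 13.25 and 12.72, whereas the club cell gene SCGB1A1, the leukocyte gene PTPRC and the fibroblast gene COL3A1 lay at 6.29, 6.37 and 6.34, near the floor of 6.23. The 9 arrays lay on 7 of the series' 35 chips, and no mock array shared a chip with an irradiated array of its run, so chip and irradiation cannot be told apart at this time.

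CDKN1A was the only gene that passed the test. Its signals after 0.5 Gy of 28Si were 13.004, 12.91 and 13.30 in runs 09A, 09B and 09C, after 1 Gy 13.18, 13.29 and 13.32, and in mock cells 12.59, 12.51 and 12.62. All 6 irradiated arrays lay above all 3 mock arrays. The responses of the 3 runs were 0.50, 0.59 and 0.69, and CDKN1A rose by 0.60 (SE 0.09, SD between runs 0.09, n = 3), a factor of 1.51 (limma, adjusted p = 0.00274). It was 1 of 24350 probes called (0.00411%). A second CDKN1A probe had a response of 0.10, so the call rests on 1 of the gene's probes.

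The call depended on how spread and scale were taken. Leaving out run 09B or 09C gave responses of 0.60 and 0.55 with adjusted p = 0.227 and 0.234, against 0.042 without 09A (limma). A fit of sample values, with the run as a fixed term and the chip as a random block, gave CDKN1A 0.58 (limma, adjusted p = 1.00). That fit also gave up the subtraction of the mock array of the same time. Sample values without pairing and without a chip term gave 0 probes as well, so the part of the chip was not tested. Median scaling of the arrays, which lowers the median of all probes to -0.09, gave CDKN1A a response of 0.33 (adjusted p = 0.762). A p-value that misses the threshold in these settings does not show that the gene was unchanged.

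**Figure D1:**
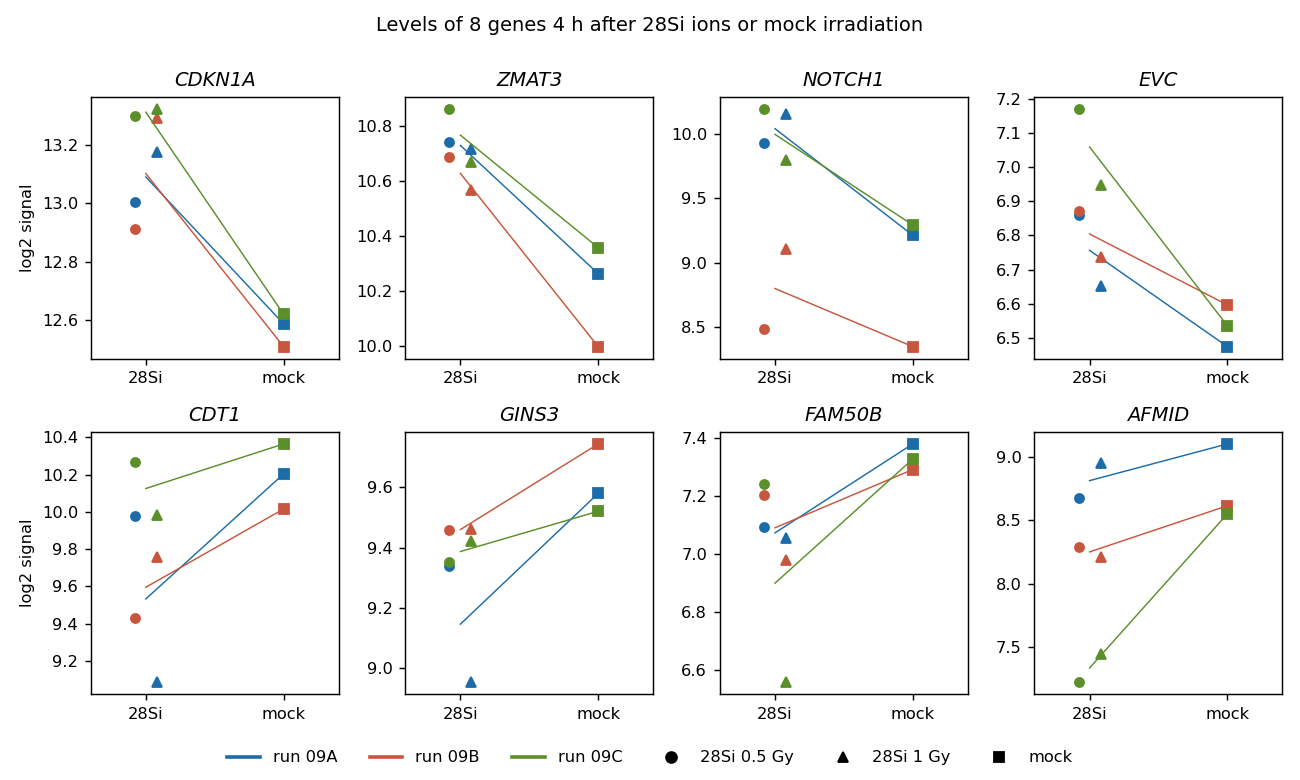
Log2 signals of 8 genes at 4 h in 28Si-irradiated cells (circles, 0.5 Gy; triangles, 1 Gy) and mock cells (squares), coloured by run. Each line joins the mean of a run's 2 irradiated arrays to its mock array. For CDKN1A, ZMAT3 and EVC all irradiated arrays lie above all mock arrays, for GINS3 and FAM50B all lie below, and for NOTCH1, CDT1 and AFMID the groups overlap although the 6 differences within runs share a direction.

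Over all named genes the response was small. The 5th and 95th percentiles were -0.17 and 0.18, 18 genes differed by 0.5 or more (13 higher, 5 lower), and the SD between runs had a median of 0.14. At an unadjusted p under 0.05, 465 genes were higher after 28Si (3.29%) and 482 lower (3.41%), and all 6 differences within runs were above 0 in 469 genes (3.32%) and below 0 in 612 (4.33%). The irradiated arrays lay above every mock array in 63 genes (0.446%) and below every mock array in 72 (0.509%). Responses of different runs shared little: over probes, Spearman's rho was 0.208 between 09A and 09B, -0.118 between 09A and 09C and -0.052 between 09B and 09C. Every gene below was chosen by a rule from p-value, effect and consistency or as a list member, did not pass the adjusted test, and is given as values. Both other controls, the mean of a run's 4 mock arrays (1 to 24 h) and the run's sample before irradiation, set 4 h against other times, and turned the sign of several of the genes and lists below.

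ZMAT3, a p53 target that encodes an RNA-binding protein, was also higher on every irradiated array. Its signals were 10.74, 10.69 and 10.87 after 0.5 Gy and 10.72, 10.57 and 10.67 after 1 Gy, against 10.26, 9.997 and 10.36 in mock cells. The run responses were 0.47, 0.63 and 0.41, and the gene's response was 0.50 (SE 0.14, n = 3 runs, factor 1.42, limma adjusted p = 0.596).

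NOTCH1, the receptor through which neighbouring epithelial cells steer each other's fate, had the highest response of the 14133 named genes. Its signals were 9.93, 8.49 and 10.20 after 0.5 Gy and 10.15, 9.11 and 9.80 after 1 Gy, against 9.21, 8.35 and 9.29 in mock cells. Run 09B was lower than the other runs with and without 28Si, so the groups overlap, but all 6 differences were above 0 (response 0.66, SE 0.18, SD 0.19, n = 3, factor 1.58, limma adjusted p = 0.596). HES2, a repressor of the HES family, was higher in 6 of 6 differences as well (0.32, SE 0.09), and so was MAML1, a coactivator of Notch (0.28). The canonical Notch targets HES1, HEY1 and NRARP had responses of 0.12, -0.18 and -0.10. The 29 Notch genes with a value had a median of 0.03, against -0.005 over all named genes, with 4 genes higher and 1 lower at an unadjusted p under 0.05, against 3.29% and 3.41% of all named genes. Under median scaling their median was -0.16, where that of all probes was -0.09.

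Other genes higher in all 6 differences came from several functions. EVC, a ciliary component of Hedgehog signaling, had signals of 6.86, 6.87 and 7.17 after 0.5 Gy and 6.65, 6.74 and 6.95 after 1 Gy, against 6.47, 6.60 and 6.54 in mock cells, with no overlap (response 0.34, SE 0.08); its other probes had responses of 0.02 and 0.18. NDST1, an enzyme of heparan sulfate synthesis, had a response of 0.51 that came most from run 09C (0.84, against 0.23 in 09A and 0.46 in 09B). MAP3K9, a kinase upstream of JNK, had one of 0.43 (-0.04 against the sample before irradiation), and COX4I2, an isoform of a cytochrome c oxidase subunit, one of 0.37. SERPINB5 (maspin), a serpin of epithelial cells, was bright and even: signals were 13.08, 13.13 and 13.67 after 0.5 Gy and 13.23, 13.01 and 13.38 after 1 Gy, against 12.86, 12.71 and 13.29 in mock cells (response 0.29, SE 0.08, SD 0.06, n = 3).

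Among the lower genes, CDT1, which loads the MCM helicase onto replication origins, was lower in all 6 differences. Its signals were 9.98, 9.43 and 10.27 after 0.5 Gy and 9.09, 9.76 and 9.98 after 1 Gy, against 10.20, 10.02 and 10.36 in mock cells. The response was -0.44 (SE 0.12, SD 0.22, n = 3, factor 0.735, limma adjusted p = 0.596), and its size ran from -0.67 in 09A to -0.24 in 09C. Against the mean of a run's 4 mock arrays the CDT1 response was -0.08, and against the sample before irradiation it was 0.12, above 0. FAM50B did not overlap between groups, with 6.56 to 7.24 on the irradiated arrays and 7.29 to 7.38 on the mock arrays (response -0.31, SE 0.09). XXYLT1, a xylosyltransferase that extends sugars on Notch, and SSX2IP, a centrosomal protein, were the most even of the 15 lower genes between runs, with responses of -0.34 (SD 0.03) and -0.31 (SD 0.04). CD274, which encodes the immune checkpoint ligand PD-L1, had a low signal and a response of -0.29 (SE 0.08). FLCN (folliculin), a regulator of mTORC1 signaling, had a response of -0.44, while its other probes had responses of 0.00 and -0.00. Against the sample before irradiation CD274 and FLCN also lay above 0, at 0.28 and 0.13.

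In 3 of the lower genes, run 09C stood apart. AFMID, an enzyme of tryptophan breakdown, had signals of 8.67, 8.29 and 7.23 after 0.5 Gy and 8.95, 8.21 and 7.45 after 1 Gy, against 9.10, 8.62 and 8.55 in mock cells (response -0.62, SE 0.12, SD 0.51, n = 3, limma adjusted p = 0.196). The run responses were -0.29 and -0.36 in 09A and 09B and -1.21 in 09C. AZIN1, which blocks the inhibitor of polyamine synthesis, had -0.20, -0.41 and -1.06, and BCL10, an adaptor of NF-kB signaling, had -0.12, -0.15 and -1.11. In run 09C the irradiated arrays had median raw signals of 54.5 and 48.9, against 84.6 on its mock array, the widest gap of the 3 runs; its part in these responses was not tested. Without 09C the response of AFMID was -0.33. Against the sample before irradiation AFMID and AZIN1 lay above 0, at 0.12 and 0.23.

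**Figure D2:**
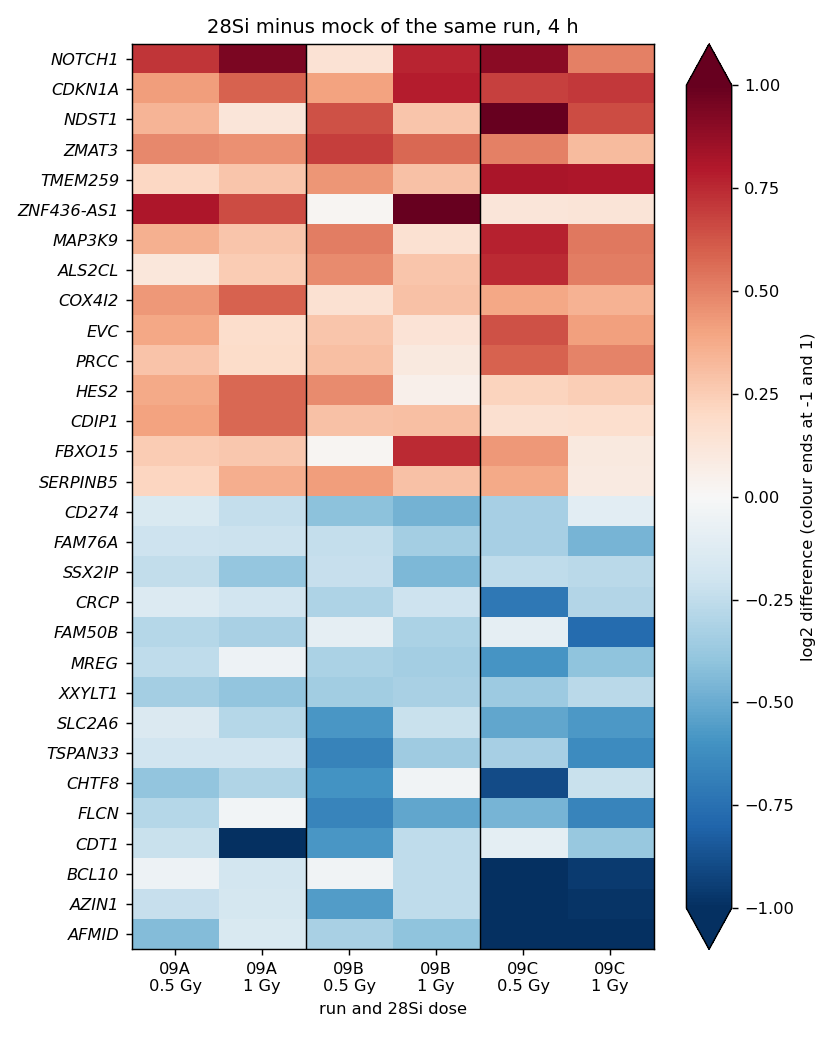
Colour map of the log2 difference between each 28Si array and the mock array of its run, 4 h after irradiation, for the 15 higher and 15 lower genes that the naming rule chose. Columns are runs and doses, rows are genes ordered by response. Every cell of a row has 1 direction because the rule asked for it, CDKN1A and ZMAT3 are even across columns, and AFMID, AZIN1 and BCL10 are darkest in run 09C.

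The p53 targets were read as 3 lists. Among 22 genes of p53 feedback and cell cycle arrest with a value (25 in the list), 20 had a response above 0, against 48.0% of all named genes. In all 6 differences 3 of the 22 were higher, against 3.32% of all named genes. At an unadjusted p under 0.05, 4 of the 22 were higher and 1 lower, against 3.29% and 3.41%. Their median was 0.13 (runs 0.17, 0.14 and 0.02), against -0.005 over all named genes, and -0.06 under median scaling, where the median of all probes was -0.09. XPC, which recognises lesions for nucleotide excision repair, followed CDKN1A and ZMAT3 with a response of 0.34 (SE 0.12, 6 of 6 differences above 0), but -0.26 against the mean of a run's 4 mock arrays and -0.39 against the sample before irradiation. GADD45A, TNFRSF10B and RRM2B, which serve growth arrest, death receptor signaling and nucleotide supply, had responses of 0.23, 0.21 and 0.21.

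MDM2, the ubiquitin ligase that p53 induces and that in turn degrades p53, had a response below 0. Its signals were 8.43, 8.97 and 7.04 after 0.5 Gy and 8.70, 8.46 and 7.37 after 1 Gy, against 8.55, 9.39 and 8.00 in mock cells. Of the 6 differences 5 were below 0, and the responses were 0.01, -0.67 and -0.80 in the 3 runs (mean -0.49, SE 0.16, SD 0.43, limma adjusted p = 0.624). Its relative MDM4 had a response of -0.17.

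Of 15 p53 targets of cell death, 11 had a response above 0 (median 0.11, and -0.02 under median scaling), and 5 were higher at an unadjusted p under 0.05, where 48.0% and 3.29% of all named genes did so. TP53INP1, a stress-induced p53 cofactor, had a response of 0.37, and CDIP1, a p53 effector of apoptosis, had one of 0.32 (SE 0.09). BCL2L1, a BCL2 family gene that encodes the survival protein BCL-XL, had one of 0.30 (-0.23 against the sample before irradiation). Of 27 caspase and BCL2 family genes, 9 were above 0 (median -0.04). The BH3-only genes BBC3 and PMAIP1, the pore-forming BAX and the death receptor FAS had responses of 0.18, 0.08, 0.11 and -0.03. Of 14 metabolic and secreted targets, 12 had a response above 0 (48.0% of all named genes; median 0.15, and -0.07 under median scaling), led by KITLG, the ligand of the KIT receptor (0.32, SE 0.10), GDF15, a secreted stress cytokine (0.28), and TIGAR, which diverts glucose to NADPH production (0.26, SE 0.09). Against the mean of a run's 4 mock arrays the medians were 0.06 for feedback and arrest, 0.08 for cell death and 0.03 for metabolic and secreted targets. Under median scaling the median of all probes was -0.09. Genes in 2 of these p53 lists, ZMAT3 among them, count in both.

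DDB2, a p53 target, encodes a damage-recognition protein, and a start of this gene is shown for the p53 motif. Of 23 promoters of the feedback and arrest genes it was the only one with an exact p53 consensus, a pair of sites with 0 to 13 bases between them, searched on both strands. The windows span 250 bases before to 50 bases after the RefSeq gene start on GRCh38.p14, and 10 of all 35116 windows (0.0285%) hold such a pair. Another DDB2 window, at chr11:47214204-47214503, holds no such pair. The DDB2 window shown lies at chr11:47214724-47215023 on the plus strand, and capitals mark the pair, which begins 5 bases after the start.
DDB2: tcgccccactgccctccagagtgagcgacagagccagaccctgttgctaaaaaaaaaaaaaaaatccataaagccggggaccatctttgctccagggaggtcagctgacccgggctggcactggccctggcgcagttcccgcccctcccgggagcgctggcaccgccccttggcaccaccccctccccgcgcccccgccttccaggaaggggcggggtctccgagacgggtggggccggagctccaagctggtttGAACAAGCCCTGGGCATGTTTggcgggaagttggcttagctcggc
The response of DDB2 was 0.02: its signals were 8.25, 8.05 and 8.18 after 0.5 Gy and 8.55, 8.05 and 8.52 after 1 Gy, against 8.37, 8.18 and 8.18 in mock cells. DDB2 was singled out after its values were seen. The CDKN1A window held no exact pair, which says only that these letters are not in this stretch.

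Replication genes ran below 0 against the 4 h mock arrays. Of 44 genes of replication origins and forks, 31 had a response below 0 and 9 were lower in all 6 differences. At an unadjusted p under 0.05, 11 were lower and 0 higher. Of all 14133 named genes, 7344 were below 0 and 4.33% were lower in all 6 differences. At that p, 3.41% of all named genes were lower and 3.29% higher. The replication list had a median of -0.12 (runs -0.19, -0.04 and -0.07), and -0.34 under median scaling, where the median of all probes was -0.09. Over the 18 other settings the list median ran up to 0.07 and changed sign in 2. GINS3, a subunit of the replicative helicase, had signals of 9.34, 9.46 and 9.35 after 0.5 Gy and 8.95, 9.46 and 9.42 after 1 Gy, against 9.58, 9.74 and 9.52 in mock cells, without overlap (response -0.28, SE 0.08), but 0.26 above the mean of a run's 4 mock arrays and 0.46 above the sample before irradiation. PRIM1, the catalytic primase subunit, had 8.44, 9.47 and 9.07 after 0.5 Gy and 8.34, 9.43 and 9.31 after 1 Gy, against 8.80, 9.59 and 9.42 in mock cells (response -0.26, SE 0.08); runs differed more than doses, so the groups overlap. DTL, which directs CDT1 to degradation, the clamp loader subunit RFC3 and the origin-firing factor MCM10 had responses of -0.33, -0.30 and -0.29. POLD1 and LIG1, which complete the lagging strand, had responses of 0.21 and 0.20.

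Of 25 other G1/S genes that E2F factors control, 22 had a response below 0 and 7 were lower in all 6 differences. At an unadjusted p under 0.05, 5 were lower and 0 higher. The median of this list was -0.13 (runs -0.18, -0.11 and -0.12), and -0.35 under median scaling, where the median of all probes was -0.09. Over the 18 other settings it ran up to 0.14 and changed sign in 2. Of all 14133 named genes, 7344 were below 0 and 4.33% were lower in all 6 differences. At that p, 3.41% of all named genes were lower and 3.29% higher. CDCA7, a DNA methylation factor of S phase, had a response of -0.31 (SE 0.12), CHAF1B, a subunit of the chromatin assembly complex, one of -0.30, the cyclin CCNE2 one of -0.27 and the histone chaperone NASP one of -0.23. Against the sample before irradiation CDCA7 and NASP had 0.05 and 0.01. TK1, MYBL2 and DNMT1 lay at 0.03, 0.03 and 0.00. The list median was -0.13 after 1 Gy and -0.10 after 0.5 Gy for replication genes, and -0.22 after 1 Gy and -0.09 after 0.5 Gy for G1/S genes. CDT1 and CDCA7, and most of these genes, are transcribed in late G1 and S phase, and in RNA from whole cultures fewer cells in a phase and less RNA per cell cannot be told apart.

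The starts of these genes were searched for E2F motifs. The letters were TTTGGCGC, TTTCCCGC, TTTGCCGC or TTTCGCGC on both strands, and a window holding more than 1 counted once. A motif was found in 22 of 49 windows of the replication genes (44.9%) and in 12 of 30 windows of the G1/S genes (40.0%), a list made of genes known as E2F targets, against 4.49% of windows of all tested named genes and 3.31% of all windows. Of the G2/M windows 3 of 55 (5.45%) held one, and of the basal keratin and junction windows 0 of 21. Of the p53 feedback and arrest windows, a list with a median above 0, 4 of 23 (17.4%) held one. The p53 cell death windows had 1 of 17 (5.88%) and the metabolic and secreted windows 1 of 19 (5.26%). The windows of CDT1 at chr16:88803539-88803838, GINS3 at chr16:58392221-58392520 and CDCA7 at chr2:173354622-173354921, all on the plus strand, are shown as examples of windows that hold the motif, from genes lower in 6 of 6 differences. PRIM1, CHAF1B and NASP, also lower in 6 of 6, have windows with 0 motifs. Capitals mark the motif, which begins 35, 5 and 65 bases before the start.
CDT1: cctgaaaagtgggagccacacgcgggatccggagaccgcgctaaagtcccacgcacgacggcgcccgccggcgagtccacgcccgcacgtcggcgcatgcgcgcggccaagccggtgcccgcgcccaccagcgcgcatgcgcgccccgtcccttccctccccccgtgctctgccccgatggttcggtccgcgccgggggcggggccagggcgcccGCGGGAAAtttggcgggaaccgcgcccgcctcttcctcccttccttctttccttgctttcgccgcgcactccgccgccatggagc
GINS3: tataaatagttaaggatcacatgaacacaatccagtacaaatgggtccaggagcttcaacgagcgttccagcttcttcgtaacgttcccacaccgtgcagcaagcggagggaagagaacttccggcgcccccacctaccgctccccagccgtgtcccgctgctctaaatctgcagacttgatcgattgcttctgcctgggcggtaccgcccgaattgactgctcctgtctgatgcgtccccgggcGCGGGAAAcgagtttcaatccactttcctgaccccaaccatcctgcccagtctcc
CDCA7: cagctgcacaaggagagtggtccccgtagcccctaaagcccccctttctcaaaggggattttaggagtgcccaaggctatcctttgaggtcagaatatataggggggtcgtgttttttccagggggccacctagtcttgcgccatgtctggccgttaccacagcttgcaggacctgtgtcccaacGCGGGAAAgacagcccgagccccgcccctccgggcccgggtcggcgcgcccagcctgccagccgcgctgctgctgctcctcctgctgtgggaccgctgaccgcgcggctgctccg
The 3 windows hold the same letters, GCGGGAAA. A match describes the sequence and is not a measured binding site.

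The median of mitotic genes depended on the control. Of 49 G2/M genes, 36 had a response below 0 (median -0.07 against the 4 h mock arrays, -0.35 against the mean of a run's 4 mock arrays, -0.46 against the sample before irradiation and 0.02 with the chip as a random block) and 5 were lower at an unadjusted p under 0.05, among them the kinetochore genes SPC25 and CENPA and the cyclin CCNB2, at -0.32, -0.31 and -0.24. Of 22 histone genes 18 were below 0 (median -0.08). For comparison, 7344 of all 14133 named genes were below 0 and 3.41% were lower at an unadjusted p under 0.05. Among 40 genes of double-strand break repair (median -0.05), FANCE, BRCA1 and CHEK1 had responses of -0.25, -0.25 and -0.23 (0.13 for CHEK1 against the sample before irradiation), whereas the end-joining gene XRCC6 and the break sensor TP53BP1 had responses of 0.13. Excision and mismatch repair genes (34; median -0.02) split between XPC at 0.34 and the glycosylase gene MUTYH at -0.28. The medians of all these lists were lower still under median scaling, at -0.15 to -0.27, where the median of all probes was -0.09.

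Basal keratin, desmosome and hemidesmosome genes had a median of 0.17 over 22 genes (runs 0.18, 0.23 and 0.10), with 18 above 0, 7 higher in all 6 differences and 3 higher at an unadjusted p under 0.05. Of all named genes 48.0% were above 0, 3.32% were higher in all 6 differences and 3.29% were higher at that p. Median scaling put the list median at -0.04, where the median of all probes was -0.09, and the sample before irradiation as control put it at -0.06. CDH3, the P-cadherin of basal cells, had signals of 12.10, 12.25 and 12.50 after 0.5 Gy and 12.19, 11.54 and 12.01 after 1 Gy, against 11.80, 11.46 and 11.97 in mock cells. In runs 09B and 09C the 1 Gy array was close to mock and the 0.5 Gy array above it (response 0.35, SE 0.12). The desmosomal plaque gene DSP and the cadherin DSG3 had responses of 0.36 and 0.29. LAMB3, a laminin chain of the basement membrane, had one of 0.33, but its other probes had -0.67 and -0.12. Against the sample before irradiation CDH3, DSP and LAMB3 had -0.09, -0.001 and -0.07. The keratins KRT5 and KRT14 themselves had 0.15 and 0.07, with run responses of 0.00, 0.50 and -0.07 for KRT5. The list median was 0.07 after 1 Gy and 0.23 after 0.5 Gy.

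Lipid synthesis genes had a median of 0.06 over 29 genes, 20 of them above 0 (48.0% of all named genes). The list median was -0.15 under median scaling, where that of all probes was -0.09, and -0.20 against the sample before irradiation. The regulator SREBF2 (0.31), the fatty acid synthase FASN (0.28, SE 0.12) and the desaturase FADS2 (0.30) led the list. All 3 lay below 0 against the sample before irradiation, at -0.36, -0.07 and -0.64. FASN signals were 13.54, 13.81 and 13.94 after 0.5 Gy and 13.28, 13.69 and 13.62 after 1 Gy, against 13.19, 13.41 and 13.49 in mock cells, so in each run the lower dose was the higher of the pair. Stress lists had these medians: 0.003 for the ATF4 and unfolded protein response (31 genes), 0.01 for NF-kB and cytokines (20), -0.02 for interferon-stimulated genes (28), -0.01 for immediate early genes (32), -0.03 for the acute phase response (19), 0.03 for NRF2 and glutathione (31) and 0.06 for chaperones (26). Each of these lists had run medians on both sides of 0, and those of the chaperones were 0.10, 0.03 and -0.11. The remaining lists had medians of 0.07 for nucleotide, polyamine and ribosome biogenesis (29 genes), -0.003 for cytosolic ribosomal proteins (45), -0.04 for caspases and the BCL2 family (27), 0.01 for metallothioneins (14), 0.03 for ID proteins and TGF-beta feedback (17), 0.03 for phospholipases (22) and -0.06 for the circadian clock (17). The ATF4 list had a median of -0.61 against the sample before irradiation, -0.07 against the mean of a run's 4 mock arrays and -0.24 under median scaling. The biogenesis list had 0.32, 0.23 and -0.19 in these settings, chaperones 0.12, 0.07 and -0.21, and immediate early genes 0.06, -0.15 and -0.19. Of the stress lists the largest single values were HYOU1, an endoplasmic reticulum chaperone, at 0.40, and ERN1, a sensor of unfolded protein, at -0.33. Against the sample before irradiation HYOU1 had -0.62 and ERN1 -0.67.

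**Figure D3:**
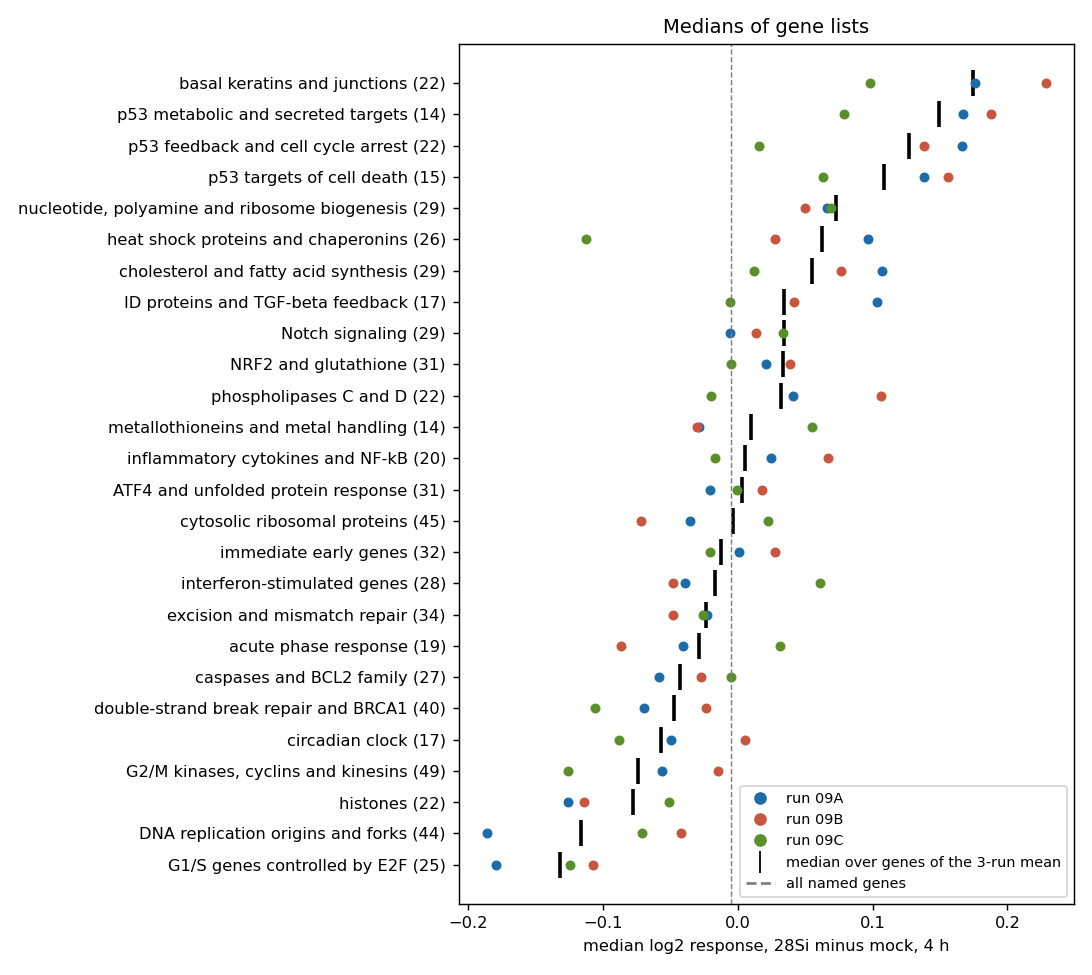
Median log2 response (28Si minus mock, 4 h) of 26 gene lists, with the number of genes analysed in parentheses. Black bars are the median over genes of the 3-run mean, coloured points the median within each run and the dashed line the median of all named genes. On the quantile-normalized scale the basal keratin and p53 lists lie above 0 in all 3 runs, as do the lipid synthesis and biogenesis lists. The replication and G1/S lists lie below 0 in all 3 runs, as do the G2/M, histone, repair, and caspase and BCL2 family lists.

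Dose was compared within runs as the 1 Gy array minus the 0.5 Gy array, in 35 such differences over the series. No probe passed the adjusted test (0 of 24350, 0%, limma lowest adjusted p = 0.432), with 1359 (5.58%) at an unadjusted p under 0.05. For CDKN1A the difference was 0.19 (SE 0.14, SD 0.18, n = 3 runs; adjusted p = 0.918), so the steps of 0.69 above mock at 1 Gy and 0.50 at 0.5 Gy were not separated beyond the spread. TIGAR had a difference of 0.35 (SE 0.12), with mean signals of 10.17 ± 0.17 at 1 Gy and 9.83 ± 0.26 at 0.5 Gy (SD, n = 3). FLT3LG, a growth factor of blood cell progenitors, had the smallest p, with 6.29, 6.35 and 6.30 at 1 Gy and 6.69, 6.69 and 6.69 at 0.5 Gy (difference -0.37, SE 0.08), at a signal close to the floor. POLA1, the catalytic subunit of DNA polymerase alpha, had a difference of 0.47 (SE 0.12), with 7.68, 7.89 and 8.45 at 1 Gy and 7.38, 7.27 and 7.97 at 0.5 Gy.

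Among the 28Si times, CDKN1A differed from mock at 4 h most: its responses at 1, 4, 12 and 24 h were 0.00, 0.60, 0.19 and 0.14 (SD between runs 0.16, 0.09, 0.16 and 0.09). The 4 h response exceeded the mean of the other 3 times by 0.49 (SE 0.10, limma adjusted p = 0.838). No probe of 24350 passed this test (0%), and 657 (2.70%) had an unadjusted p under 0.05. Mock signals also differed between times. Before irradiation and in mock cells at 1, 4, 12 and 24 h, CDKN1A was 13.26, 13.97, 12.59, 13.20 and 14.27 in run 09A, 12.35, 12.44, 12.51, 13.02 and 13.30 in 09B, and 13.18, 13.13, 12.62, 13.04 and 13.37 in 09C. The 4 h mock arrays of 09A and 09C were thus the lowest of their runs. Against the mean of a run's 4 mock arrays the 4 h response of CDKN1A was 0.05 (limma, adjusted p = 0.961), and against the sample before irradiation 0.24 (adjusted p = 0.83), so the call rests on the mock array of the same time.

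NOTCH1 showed responses of -0.31, 0.66, 0.19 and -0.04 at 1, 4, 12 and 24 h, and ZMAT3 of 0.02, 0.50, 0.41 and 0.15. For CDT1 they were -0.08, -0.44, -0.18 and -0.16. The replication list had medians of 0.07, -0.12, -0.03 and -0.02, and the G1/S list 0.08, -0.13, -0.02 and -0.05 at these times; with the mean of a run's 4 mock arrays as control the 4 h medians were 0.04 and 0.06, above 0. The basal keratin and junction list had 0.08, 0.17, 0.22 and -0.04, and 0.01 at 4 h with that control.

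**Figure D4:**
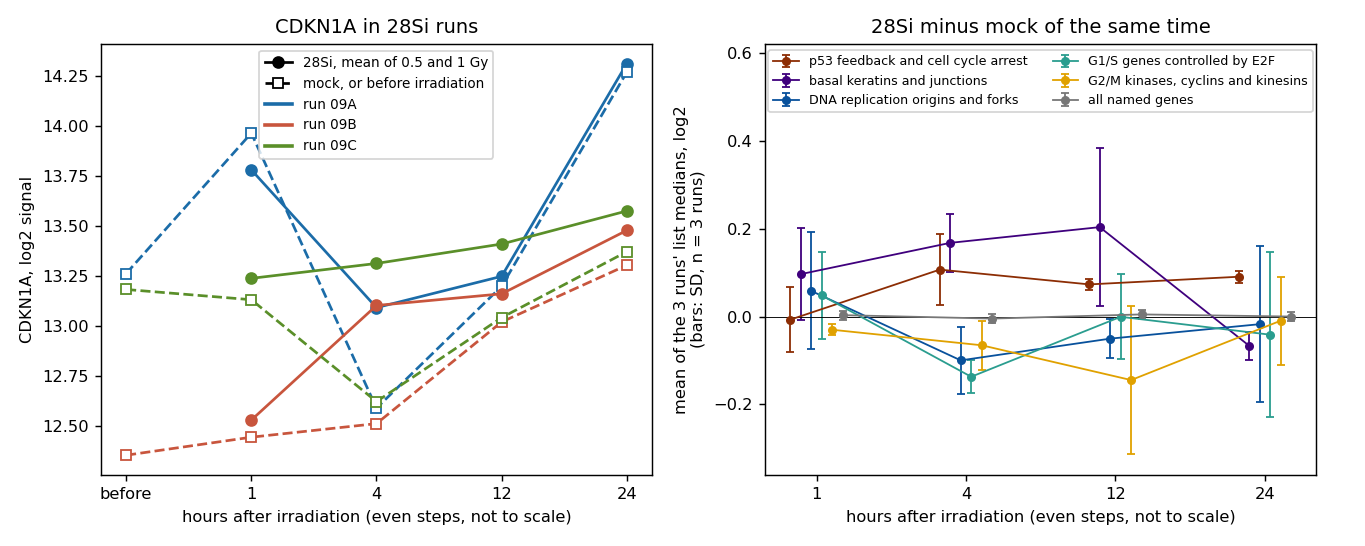
Left, CDKN1A log2 signal in the 28Si runs by hours after irradiation (filled circles, mean of 0.5 and 1 Gy; open squares, mock or before irradiation; colours, runs). Right, mean over 3 runs of the list medians of 28Si minus mock at each time (bars, SD, n = 3). At 4 h the mock lines of 09A and 09C are at their lowest, and the replication and G1/S lists are below 0.

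At 4 h the 28Si response was set against those of 56Fe, at the same doses of 0.5 and 1 Gy, and of γ-rays, at 1 and 3 Gy, so that the γ-ray values stand at other doses. No probe passed the adjusted test for a difference between 28Si and 56Fe (0 of 24350, 0%, limma lowest adjusted p = 0.952, 1214 or 4.99% at an unadjusted p under 0.05). None passed it between 28Si and γ-rays either (0%, limma lowest adjusted p = 0.687, 1494 or 6.14% at an unadjusted p under 0.05). CDKN1A responses were 0.60 after 28Si, 0.57 after 56Fe and 0.66 after γ-rays, with differences of 0.03 (SE 0.12) for 28Si minus 56Fe and -0.07 (SE 0.12) for 28Si minus γ-rays. CDIP1 had responses of 0.32, 0.38 and 0.35, XPC of 0.34, 0.35 and 0.33, and HES2 of 0.32, 0.32 and 0.27 after 28Si, 56Fe and γ-rays.

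Values lay farther apart for other genes, none past the adjusted test. MDM2 had responses of -0.49 after 28Si, 0.29 after 56Fe and -0.00 after γ-rays (28Si minus 56Fe -0.78, SE 0.22, limma adjusted p = 0.952). ZMAT3 had 0.50, 0.13 and 0.25, and CDH3 had 0.35, -0.11 and -0.06 (28Si minus 56Fe 0.46, SE 0.17). CD274 had -0.29, 0.14 and 0.04 (28Si minus 56Fe -0.43, SE 0.11, limma adjusted p = 0.952). AFMID had -0.62, -0.03 and 0.12, where run 09C carries most of the 28Si value. The replication genes GINS3 and PRIM1 had -0.28 and -0.26 after 28Si, -0.37 and -0.24 after 56Fe, and 0.04 and 0.05 after γ-rays (28Si minus γ-rays -0.33, SE 0.12, adjusted p = 0.725, and -0.32, SE 0.11, adjusted p = 0.698). The G1/S list had medians of -0.13 after 28Si, -0.17 after 56Fe and 0.02 after γ-rays, and the basal keratin and junction list had 0.17, 0.03 and 0.01.

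**Figure D5:**
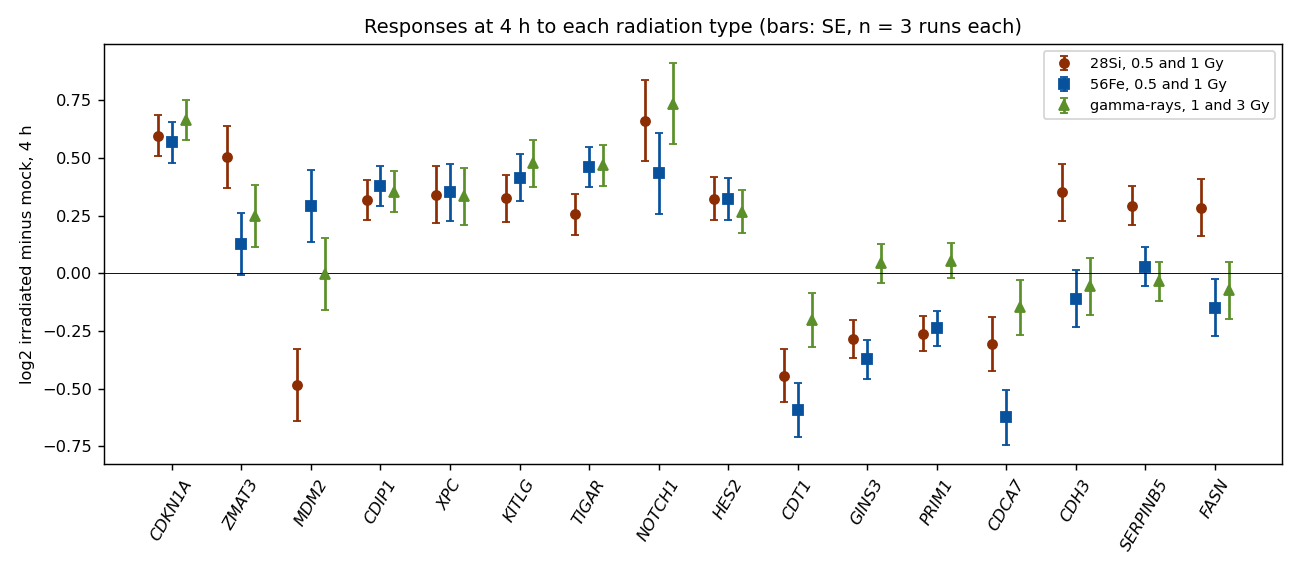
Log2 responses at 4 h (irradiated minus mock) of 16 genes to 28Si (0.5 and 1 Gy), 56Fe (0.5 and 1 Gy) and γ-rays (1 and 3 Gy); points are means of 3 runs and bars SE from the fit. CDKN1A, CDIP1, XPC and HES2 lie close together across radiation types, while MDM2 is below 0 after 28Si (-0.49) and above 0 after 56Fe (0.29), a difference that did not pass the adjusted test.

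Of 15 genes that the study names, 12 had a value here, and the others, BTG2 among them, were not analysed here. Besides CDKN1A, none passed the test. INPP5D, an inositol phosphatase, had run responses of 0.67, 0.30 and -0.05 (mean 0.30, SD 0.36), and THBS1, an extracellular matrix glycoprotein, had a mean of 0.17. With the mean of a run's 4 mock arrays as control the values were -0.01 for INPP5D and 1.07 for THBS1. TRIM22, SUGCT, GLUL, BLNK, PLD1, PLD3, SH3GL3, APH1B and CCNA1 lay between -0.13 and 0.15.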

How the data were processed

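The authors extracted probe intensity values from the Illumina HumanWG-6 arrays with BeadStudio and deposited them without normalization, as an intensity per probe and array; they also deposited a log2 value table of the same arrays, which their methods describe as background-corrected and quantile-normalized with MBCB, and which served as an alternative here. The intensities of all arrays were corrected with normexp (offset 50), quantile-normalized and put on the log2 scale with limma 3.58.1 (R 4.3.3), and repeat arrays of 1 sample were averaged to 116 samples. The brighter probes were tested, 24350 of 48701, with 6.23 as the floor on their mean log2 signal. Of all probes, 24303 were paired with 1 gene by the platform annotation, updated to RefSeq symbols; the others are unnamed here. Arrays carry no read depth, so the number of runs limits the precision.

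Irradiated minus mock differences were taken within runs, because same-numbered samples deviated together: at 4 h the correlation of their deviations from the group means was 0.406 to 0.683. The 36 responses were fitted in 1 limma model with a mean for each radiation type and time and 24 residual degrees of freedom, moderated with 8.32 prior degrees of freedom. Differences between times and radiation types were contrasts of this model, and dose was fitted on the differences of the 2 doses within runs. The pipeline was checked on simulated data. Members, gene lists and tests were chosen with earlier results of these data known. Named genes were those past an adjusted p of 0.05; the 15 higher and 15 lower genes with the smallest p among those with 6 differences of 1 sign; the genes the study names; the 3 members of each of 26 lists with the smallest p; and 5 genes on either side of the other comparisons. Of these, 1 Y-linked gene is not given, and the text names some further members of the lists. For lists, a gene's probe was the one with the highest mean signal; otherwise the one with the smallest p. Alternatives changed the background correction, scaling, filter, variance model, blocks, control, dose and runs.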

Additional observations from a re-analysis of the deposited data

How the results depend on the processing

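For the 28Si response at 4 h, 1 probe was called as reported and 1 was called without background correction, with 28Si arrays alone, with either other filter on dim probes, at 1 Gy alone and at the wider threshold of 0.1. With the run as a random replicate block among responses (correlation 0.0800) 1 probe was called. With no replicate block, that is with sample values and without pairing, 0 probes were called. Sample values with the run as a fixed term and the chip as a random block (correlation 0.202), also without the same-time subtraction, gave 0. It was also 0 with median scaling, the authors' value table, limma's trend and robust options, a spread taken from 28Si responses alone, and 0.5 Gy alone. Against the mean of the run's 4 mock samples 716 probes were called (413 higher, 303 lower) and against the sample before irradiation 282 (149 higher, 133 lower), both of which set 4 h against other times. Leaving out 1 run gave 0 to 1 probes. In the settings that gave 0 the lowest adjusted p was 0.083 to 1.00, with 230 to 2165 probes at an unadjusted p under 0.05, and the causes were not tested. The dose, time and radiation type differences gave 0 probes in every setting run; those between radiation types have no value with 28Si arrays or responses alone.

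CDKN1A had responses of 0.05 to 0.69 over the 18 other settings, above 0 in each. Of the 15 higher and 15 lower genes, 10 changed sign with the sample before irradiation as control. In every other setting in which they had a value, 0 did. The naming rule chose these genes because all their differences within runs share a sign. Dropping a run or a dose, or changing only the filter, variance model or run block, therefore could not turn that sign. For those settings the 0 is not a test. Only settings that changed the background correction, normalization, value table, chip block or control could turn it. Of 113 named values, 45 changed sign against the sample before irradiation and 16 against the mean of the 4 mock samples, and of 152 under median scaling 13. Of 32 list medians, 12 changed sign against the sample before irradiation, 7 against the mean of the 4 mock samples and 17 under median scaling, which shifts the median of all probes to -0.089. With 3 runs and responses mostly under 0.2, most genes are not separated from the median SD of 0.14 between runs.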
